A study of Mus musculus with 4 samples.

Results

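Genes of protein folding and stress in the endoplasmic reticulum (ER) were followed across bone marrow progenitor classes: Hspa5, Hsp90b1, Calr, Pdia4, Pdia6, Sdf2l1, Manf, Xbp1, Ddit3 and Atf4. They were taken by symbol from the gene rows of the 4 single-cell count matrices and make up 10 of the 32285 genes measured. The study profiled donor-type (CD45.2+) Kit+ mouse bone marrow cells 10 weeks after transplantation by joint RNA and antibody sequencing of single cells. Labels name 4 groups of 1 library each: a control, the single alterations Mll3SI and Mll4SI, and their combination, Mll3/4SI. MLL3 (gene Kmt2c) and MLL4 (Kmt2d) are large histone methyltransferases of the COMPASS family that act at enhancers. The labels do not spell out SI, do not describe the control's genotype, and give no recipient, number of animals or pooling. With 1 library per group no test of a condition was possible, and every interval below covers counting error only.

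Secreted and membrane proteins are threaded into the ER, where chaperones hold unfolded chains, disulfide isomerases pair their cysteines, and lectins such as calreticulin retain glycoproteins until they are folded. When unfolded chains accumulate, the unfolded protein response acts through the sensors IRE1, which splices Xbp1 mRNA, ATF6, which is cut to release a transcription factor, and PERK, which slows translation and favours synthesis of ATF4. ATF4 in turn can activate Ddit3, which encodes CHOP, a factor linked to cell death. In bone marrow, granulocyte precursors are heavily engaged in making granule proteins such as elastase and myeloperoxidase that pass through the ER. The 3′ UMI counts used here (unique molecular identifiers, 1 per captured transcript) do not report splicing of Xbp1, translation of Atf4 or cleavage of ATF6.

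Hspa5 encodes BiP, the ER chaperone of the Hsp70 family, and lies at chr2:34771970-34777547. Hsp90b1 (GRP94, the ER member of the Hsp90 family) lies at chr10:86690209-86705509, and Calr (calreticulin, a calcium-binding lectin chaperone) at chr8:84841850-84846934. The disulfide isomerases Pdia4 and Pdia6 lie at chr6:47796141-47813430 and chr12:17266545-17284770. Sdf2l1, a partner of the BiP and Hsp40 chaperone machinery, lies at chr16:17130138-17132383, and Manf, an ER-resident secretable protein that binds BiP, at chr9:106838312-106891979. The factors Xbp1, Ddit3 and Atf4 lie at chr11:5520659-5525893, chr10:127290774-127296288 and chr15:80255184-80257541. These positions are those of GENCODE M21 on mouse build GRCm38, matched by gene ID. Same-strand genes in the count matrices overlap Hsp90b1 (Gm15344), Manf (Rbm15b) and Ddit3. The Ddit3 symbol stands on 2 overlapping rows, of which 1 held 5618 UMIs and the other 0, so the level of Ddit3 is uncertain: how reads shared by both were counted is not given in the sources used here.

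The promoters are shown because 7 of the genes followed one another across cell classes, as described below. RefSeq promoter sequences (GRCm38.p6, 250 bases before to 50 after the gene start) were matched by symbol for 9 of the 10 genes, all but Manf. They were searched on both strands for the ER stress response element, which is CCAAT, 9 bases of any kind and CCACG. It was found in 4 of the 9 promoters (Hspa5, Hsp90b1, Calr and Pdia6) and in 0.119% of all 32851 promoters of the table. The 5 occurrences, each written in the direction of the element with its outer parts in capitals, were:
Hspa5, chr2:34772025-34772043: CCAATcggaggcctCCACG
Hsp90b1, chr10:86705638-86705656: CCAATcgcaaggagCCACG
Hsp90b1, chr10:86705533-86705551: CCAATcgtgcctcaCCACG
Calr, chr8:84847075-84847093: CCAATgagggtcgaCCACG
Pdia6, chr12:17266491-17266509: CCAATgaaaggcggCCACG
Hsp90b1 held 1 on each strand, and the letters between the outer parts differed in every occurrence. The start used for these promoters can differ from the GENCODE start given above. For Hspa5 the GENCODE start is 34771970, so its element lies inside the gene as placed by GENCODE. The whole Hspa5 promoter on the plus strand, chr2:34771840-34772139, with its element in capitals, reads:
Hspa5: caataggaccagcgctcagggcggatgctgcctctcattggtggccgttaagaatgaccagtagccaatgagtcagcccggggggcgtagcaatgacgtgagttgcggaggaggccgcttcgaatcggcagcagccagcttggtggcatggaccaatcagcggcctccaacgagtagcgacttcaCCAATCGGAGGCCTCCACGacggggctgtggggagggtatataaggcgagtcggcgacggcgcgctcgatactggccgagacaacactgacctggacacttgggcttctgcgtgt
The core TGACGTG was also found in the Hspa5 promoter, in no other of the 9, and in 2.01% of all promoters. The short form of the element (ATTGG, 1 base, CCACG) was found in none of the 9 and in 0.0365% of all promoters. The C/EBP and ATF composite TGATGCAA was likewise found in none of the 9 and in 0.895% of all promoters. CCAAT alone, which the element contains, stood in 8 of the 9 and in 37.4% of all promoters. Pdia4, Sdf2l1, Xbp1, Ddit3 and Atf4 had no full element in this window. A match is a run of letters and was not tied to binding of any factor.

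Of 36459 barcodes, 31707 cells passed the filters: 6743 control, 8023 Mll3SI, 10186 Mll4SI and 6755 Mll3/4SI. Median depth ranged from 12800 UMIs per cell in Mll4SI to 19185 in Mll3/4SI. Of the barcode sequences, 127 (0.350%) occurred in at least 2 libraries. Kmt2c stood at 129.6, 110.3, 147 and 123 counts per 1000000 gene UMIs (CPM) in control, Mll3SI, Mll4SI and Mll3/4SI, and Kmt2d at 41.3, 38.0, 35.1 and 33.3, so neither transcript was missing from any library. Which part of either gene SI alters is not given, so these levels do not check the labels. Of the sorted markers, Kit stood at 112, 100.2, 101 and 109 CPM and Ptprc, which encodes CD45, at 222, 179, 312 and 211 CPM across the libraries in the same order. Xist, the X-inactivation transcript, stood at 0.0315 and 0.194 CPM in control and Mll3SI and at 1148 and 1359.8 in Mll4SI and Mll3/4SI, so sex-linked expression moved with those groups. Its part in the results was not tested.

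Cells were grouped into classes by marker genes after clustering on genes that did not include the members, the markers or the lists below. The class names were rebuilt here, and the study may have used others. The 6 main classes resembled haematopoietic stem and multipotent progenitors (HSC/MPP-like), early granulocyte precursors (Elane, Mpo, Prtn3 and Ctsg), later granulocytes, monocyte precursors, erythroid cells and basophil or mast cell precursors. In the erythroid-like cluster 12 erythroid and 9 HSC/MPP markers were raised, and Pf4, a megakaryocyte marker, was among its 10 leading genes. The 10 megakaryocyte markers summed to 1859 CPM in its control and 2964 in its Mll4SI cells, against 303 in control HSC/MPP-like cells. Levels of this class thus describe erythroid-like cells mixed with megakaryocyte marker expression. Plasma cell markers, which mark the most ER-rich blood cells, summed to at most 27.9 CPM over 10 genes in the early granulocyte-like, monocyte-like and basophil/mast-like classes, against 1.12 to 5.45 CPM outside the Mll4SI early granulocyte-like cells.

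In control cells the ER chaperones and enzymes other than Calr were highest in early granulocyte-like cells, with monocyte-like cells next, and all 7 were lowest in later granulocyte-like cells in every library. In Mll3/4SI the sum of all 7 was highest in basophil/mast-like cells, at 5253 CPM against 4673 in monocyte-like and 4437 in early granulocyte-like cells. Of the 7 only Calr was itself highest in that class, at 2292 CPM. Hspa5, Hsp90b1, Pdia4 and Pdia6 were highest in Mll3/4SI monocyte-like cells, and Sdf2l1 and Manf in early granulocyte-like cells. In control cells Hspa5 stood at 932 CPM in early granulocyte-like, 835 in monocyte-like, 534 in HSC/MPP-like, 443 in basophil/mast-like, 274 in erythroid-like and 111 in later granulocyte-like cells. Over the 4 libraries the Hspa5 level was 728 to 932 CPM in early granulocyte-like and 637 to 835 in monocyte-like cells, so these neighbours overlapped. It was 449.9 to 534 in HSC/MPP-like and 357 to 657 in basophil/mast-like cells, which overlapped too. The erythroid-like range of 251 to 283 and the later granulocyte-like range of 103 to 130.4 were clear of each other and of all the rest.

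The ratio of the highest to the lowest class in control cells differed between genes. It was 5.0-fold for Hsp90b1, 7.21-fold for Manf and 8.41-fold for Hspa5. It was 17.4-fold for Pdia6, 20.7-fold for Pdia4, 23.2-fold for Sdf2l1 and 25.7-fold for Calr. The chaperones of lowest contrast were thus the general Hsp70 and Hsp90 of the ER with Manf. The isomerases, the BiP partner Sdf2l1 and the lectin Calr had the steeper contrast.

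Calr had its own order of classes. Its highest control level was in basophil/mast-like cells, at 1531 CPM (95% interval 1483 to 1581), followed by 1462 in early granulocyte-like, 1309.5 in monocyte-like and 1279 in HSC/MPP-like cells. It was 59.5 CPM in later granulocyte-like cells. In Mll3SI the highest class was again basophil/mast-like (1462 CPM) and in Mll3/4SI too (2292). In Mll4SI the monocyte-like (1228), HSC/MPP-like (1227) and early granulocyte-like (1220.4) levels did not differ beyond counting error. HSC/MPP-like Calr stood within 1200.4 to 1279 CPM in all 4 libraries, the narrowest range of Calr relative to its level among the 6 classes.

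Sdf2l1 stood at 599 CPM in control early granulocyte-like cells, 422 in monocyte-like, 222 in HSC/MPP-like, 163 in basophil/mast-like, 91.8 in erythroid-like and 25.8 in later granulocyte-like cells. The same contrast was seen per cell at matched depth. Thinned to 3000 UMIs, 80.2% of control early granulocyte-like cells had a Sdf2l1 UMI (Clopper-Pearson 77.2 to 83.0) against 6.46% (5.61 to 7.39) of later granulocyte-like cells. For Hspa5 the shares were 91.2% (89.0 to 93.2) and 26.4% (24.8 to 28.0). Unthinned, the Sdf2l1 shares were 97.8% and 26.4%, at median depths of 23512 and 14582 UMIs. Thinning left out 19 and 18 cells of these 2 classes.

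**Figure D1:**
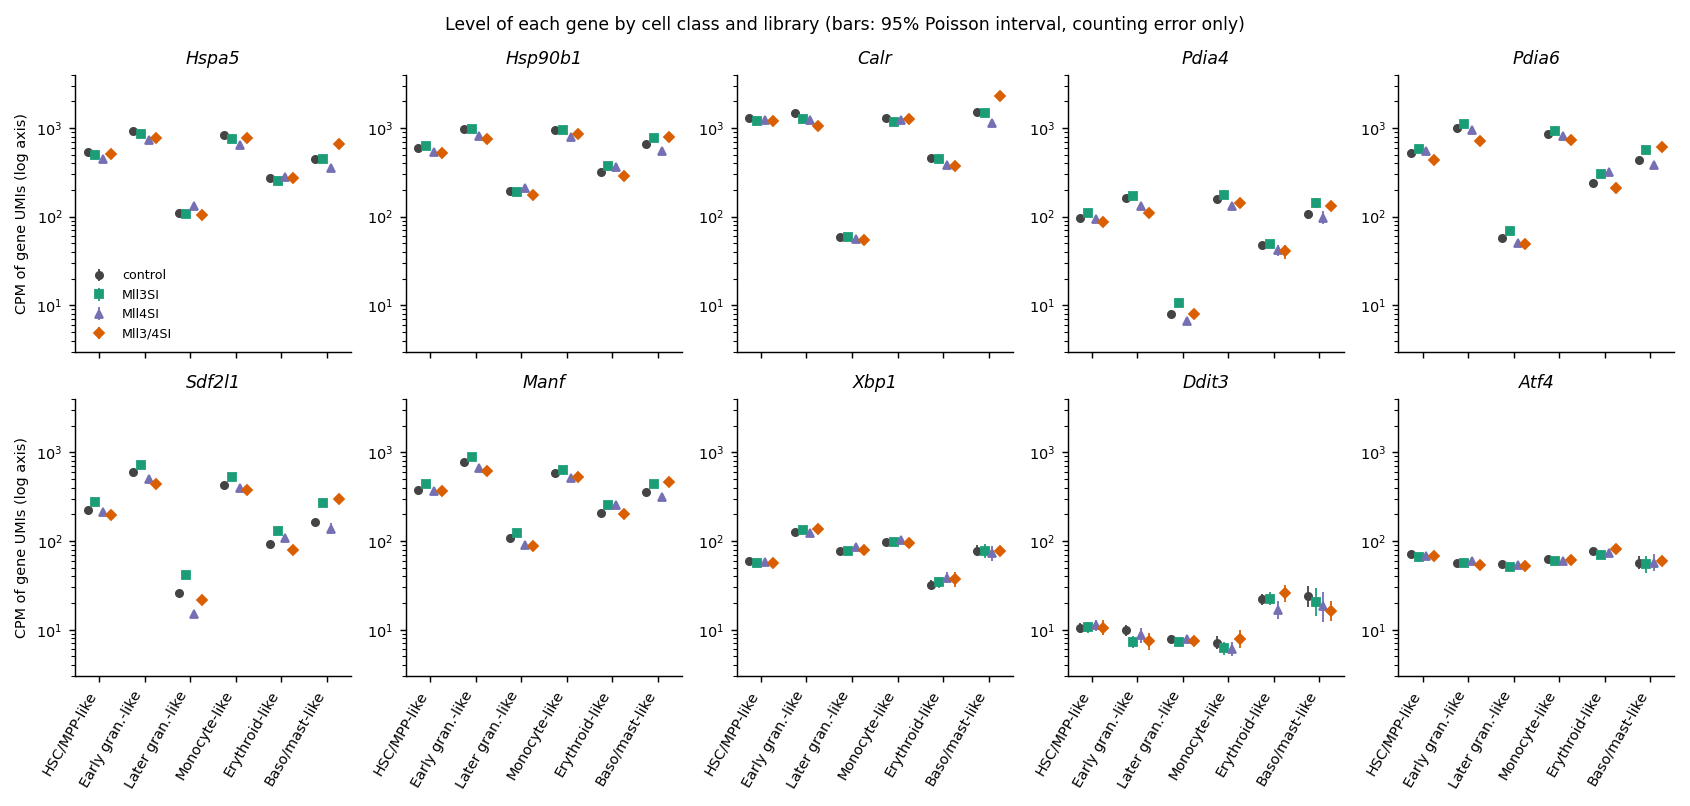
CPM of each gene (log axis) in the 6 main cell classes, 1 symbol per library, bars giving the 95% Poisson interval of the count. The first 7 genes dip in later granulocyte-like cells in every library, from 932 to 111 CPM for Hspa5 in control, while Atf4 stays between 51.3 and 81.8 CPM in these classes.

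The 3 transcription factors did not follow the chaperones. Xbp1 was highest in early granulocyte-like cells, at 124 to 135 CPM over the libraries, and lowest in erythroid-like cells, at 32.2 to 38.8. Later granulocyte-like cells, lowest for every chaperone and enzyme, held 77.7 to 85.9 CPM of Xbp1, more than the 57.2 to 59.9 of HSC/MPP-like cells. Its range over classes in control was 3.96-fold.

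Ddit3 was low, and its high classes were others. Its control level was 24.0 CPM in basophil/mast-like cells (59 UMIs) and 22.0 in erythroid-like cells (187 UMIs), against 7.15 to 10.5 in the other 4 classes. The basophil/mast-like range of 16.4 to 24.0 and the erythroid-like range of 16.7 to 25.8 overlapped. Thinned to 3000 UMIs, 2.52% of control early granulocyte-like and 2.54% of later granulocyte-like cells had a Ddit3 UMI, so single-cell shares of Ddit3 rest on few cells.

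Atf4 mRNA was nearly level. In the 6 main classes it ran from 51.3 CPM in Mll3SI later granulocyte-like cells to 81.8 in Mll3/4SI erythroid-like cells, and the highest control class was 1.41-fold above the lowest. Since ATF4 is set largely by translation, this level does not report its protein.

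The pattern over classes was compared by Pearson r of log2 CPM + 1 over the 26 sums of a class in a library with at least 50 cells. These points share libraries and depth, and r is given as a description. Among the 21 pairs of the 7 chaperones and enzymes r ran from 0.90 to 0.99. With the same 7 genes, r was 0.22 to 0.48 for Xbp1, -0.13 to 0.16 for Ddit3 and -0.03 to 0.18 for Atf4. Of 8535 genes ranked, the 5 nearest to Hspa5 were Sec61b (r = 0.99), Hyou1 (0.98), Manf (0.98), Spcs2 (0.98) and Pdia6 (0.98). Sec61b belongs to the channel through which chains enter the ER, Hyou1 is an ER Hsp70 relative and Spcs2 a subunit of the signal peptidase. The 5 nearest to Xbp1 were Fis1 (0.94), Serp1 (0.93), Nucb2 (0.93), Atp6ap2 (0.93) and Adprm (0.93). Nearest to Ddit3 were Slc45a4 (0.95), Tgfbr3 (0.95), Gata1 (0.94), Ell2 (0.93) and Dpf3 (0.93), of which Gata1 was itself one of the erythroid markers.

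Together the 7 chaperones and enzymes made up 0.590% of all gene UMIs in control early granulocyte-like cells, 0.511% in monocyte-like, 0.369% in basophil/mast-like, 0.362% in HSC/MPP-like, 0.163% in erythroid-like and 0.0563% in later granulocyte-like cells. Granule protein genes of early granulocytes (Elane, Mpo, Prtn3, Ctsg and Prss57) made up 3.29% of UMIs in the first of these classes and 0.0822% in the last. These genes were chosen as cargo of the early stage and do not measure the granule genes of later stages. The 22 later granulocyte markers, among them Ltf and Camp, summed to 338460 CPM in the last class. HSC/MPP-like cells were spread widely: the 10th and 90th percentiles of their cells were 1078 and 6159 CPM of the 7 genes in control, against 3782 and 7778 in early granulocyte-like cells.

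**Figure D2:**
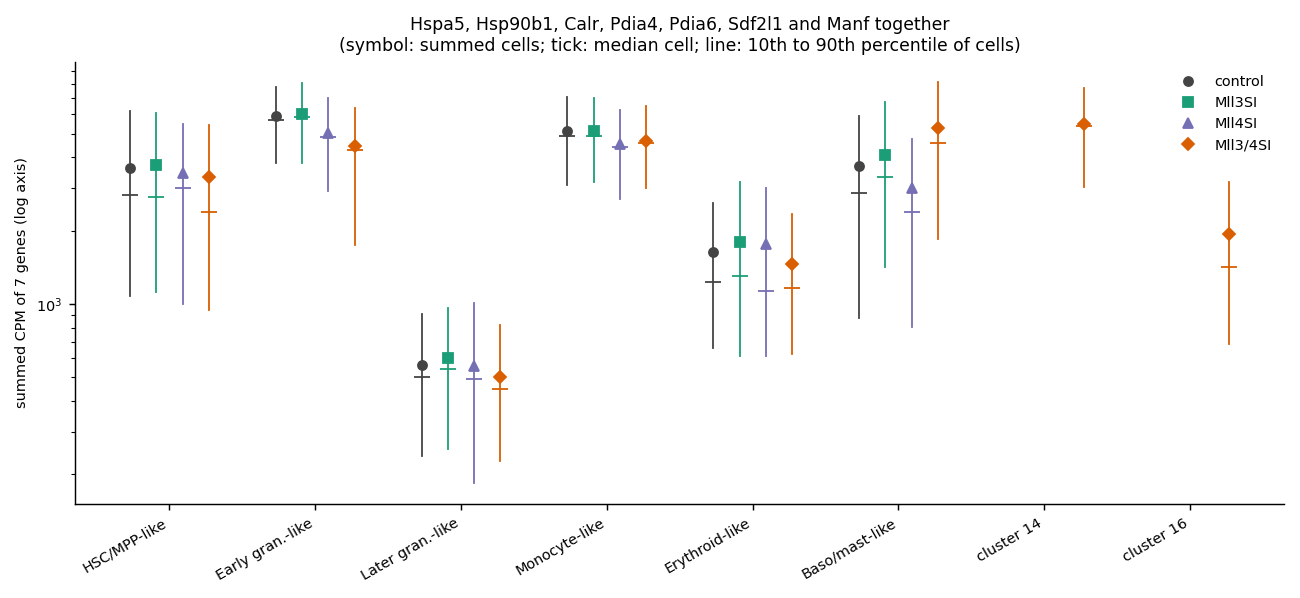
Summed CPM of Hspa5, Hsp90b1, Calr, Pdia4, Pdia6, Sdf2l1 and Manf (log axis) by class and library, the symbol giving all cells summed, the tick the median cell and the line the 10th to 90th percentile of cells. Early granulocyte-like cells are at 5898 CPM in control and 4437 in Mll3/4SI, with the highest library, Mll3SI, at 5996. Basophil/mast-like cells are at 3693 in control and 5253 in Mll3/4SI, with the lowest library, Mll4SI, at 2984. Later granulocyte-like cells stay between 501 and 603.

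Each of the 3 groups was then compared with control within a class, asking how ER gene levels stood where Mll3, Mll4 or both carried the SI alteration. All 3 comparisons share the control library. Values are log2 ratios of CPM + 1, and a gene is called where its mean over the libraries is at least 10 CPM and its ratio is past 1.5-fold in either direction. Ddit3 was under that level in early granulocyte-like, monocyte-like and later granulocyte-like cells, and Pdia4 in the last, which leaves 9, 9 and 8 genes tested there.

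HSC/MPP-like cells showed little. None of the 10 genes was called in any comparison, where of the 8612 genes tested 0.848% were in Mll3SI, 2.91% in Mll4SI and 1.88% for the double alteration. For the respective comparisons the median of the 10 was 0.05, -0.05 and -0.08, beside 0.02, -0.02 and -0.06 over all genes tested. The largest differences were for Sdf2l1 in Mll3SI (0.31, interval 0.26 to 0.37), Pdia6 in Mll3/4SI (-0.26, interval -0.31 to -0.21) and Hspa5 in Mll4SI (-0.25, interval -0.29 to -0.21). In the few HSC/MPP-like cells without cell cycle signal (8.95% of control and 11.2% of Mll4SI cells) the Mll4SI median was 0.66 and the Hspa5 ratio 0.65. There 6 genes were past 1.5-fold, with no share of all genes given for that subset. Later granulocyte markers stood at 9346 CPM in all Mll4SI HSC/MPP-like cells against 2556 in control. They stood at 5154 against 2778 CPM in cells carrying only Hashtag1 and 7021 against 2366 in cells carrying only Hashtag2.

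In Mll3SI cells Sdf2l1 was higher than in control in every class compared. Its levels in control and Mll3SI were 222 and 275 CPM in HSC/MPP-like, 599 and 717 in early granulocyte-like, and 422 and 521 in monocyte-like cells. They were 25.8 and 41.7 CPM in later granulocyte-like, 91.8 and 129.8 in erythroid-like, and 163 and 267 in basophil/mast-like cells. In B-lymphoid-like cells, comparable only for these 2 libraries (72 and 189 cells), they were 137 and 205. In that class Ddit3 was at 9.98 against 16.5 CPM (-0.67, interval -1.62 to 0.19, from 26 and 20 UMIs) and Atf4 at 85.2 against 62.8 (0.43, interval 0.06 to 0.84). The Sdf2l1 log2 ratio ran from 0.26 in early granulocyte-like to 0.71 (interval 0.51 to 0.92) in basophil/mast-like cells, and the 7 classes share 1 control and 1 Mll3SI library. Granule protein genes of early granulocytes were also higher in Mll3SI B-lymphoid-like (2368 against 472 CPM) and erythroid-like cells (505 against 243). In HSC/MPP-like cells they were nearly level (7811 against 7763). Their part in the Sdf2l1 ratios was not tested.

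Pdia6, Manf and Pdia4 were also above control in all 7 classes in Mll3SI, with ratios of 0.11 to 0.36, 0.11 to 0.29 and 0.05 to 0.42. In later granulocyte-like cells without cell cycle signal the direction turned for Pdia6 (-0.40) and Pdia4 (-0.82), and in erythroid-like cells for Pdia4 under 4 of 14 alternatives, among them Hashtag2-only cells (-0.27). Hspa5 and Calr were not: Hspa5 ratios ran from -0.15 to 0.09 and Calr ratios from -0.20 to 0.06. So the BiP partner Sdf2l1 was higher in classes where the BiP transcript itself was lower or near control. Of the 8 genes tested in later granulocyte-like cells and the 10 in basophil/mast-like cells 1 each, Sdf2l1, was called, where 1.25% and 7.34% of all genes were. In basophil/mast-like cells the Sdf2l1 ratio was 1.003 in Hashtag1-only and 0.44, short of 1.5-fold, in Hashtag2-only cells. None of 9 was called in early granulocyte-like and monocyte-like cells (0.955% and 0.719% of all genes), and none of 10 in erythroid-like cells (2.2%). The median of the members there was 0.06, 0.03 and 0.07. In later granulocyte-like cells it was -0.009, with 5 of 8 below control, and in basophil/mast-like cells 0.14.

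Within later granulocyte-like cells, Sdf2l1 was higher in Mll3SI than in control in each of the 5 clusters with at least 50 cells of both libraries. It was 18.8 against 12.3 CPM in cluster 0, 50.5 against 35.7 in cluster 2, 14.2 against 10.4 in cluster 3 (14 and 25 UMIs), 79.1 against 60.6 in cluster 13 and 89.7 against 64.1 in cluster 17. Cluster 17 had 330 cells in Mll3SI and 126 in control, and granule protein genes of early granulocytes summed to 1608 against 822 CPM over the class. Weighted to the control mix of clusters, the Sdf2l1 ratio was 0.47 instead of 0.67 and fell short of 1.5-fold. In cells carrying only Hashtag1 it was 0.88 and in cells carrying only Hashtag2 0.49. What the hashtags mark is not given in the labels.

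In Mll4SI the early granulocyte-like and monocyte-like members were mostly lower. None of the 9 tested was called in either class (3.01% and 2.5% of all genes). In each, 8 of 9 were below control, where 45.8% and 43.8% of all genes were above it. The medians were -0.25 and -0.10 beside -0.02 and -0.02 over all genes. Hspa5 differed most, at 728 against 932 CPM (-0.36, interval -0.39 to -0.32) in early granulocyte-like and 637 against 835 (-0.39, interval -0.42 to -0.36) in monocyte-like cells. The 22 later granulocyte markers described below summed to 22950 against 9255 CPM in the first of these classes and 8734 against 2732 in the second. In Hashtag1-only and Hashtag2-only Mll4SI cells they summed to 15556 and 19896 CPM in the first and 5749 and 5560 in the second. Cells positive for both hashtags (5.55% of kept Mll4SI and 2.25% of kept control cells) stayed in the pooled sums. In the early granulocyte-like cells low in these markers the Mll4SI median was -0.20. In later granulocyte-like cells Hspa5 was higher instead, at 130.4 against 111 CPM (0.23, interval 0.19 to 0.28). That direction turned in cells without cell cycle signal (-0.18), which were 29.3% of Mll4SI and 4.604% of control cells of the class, and with weighting to the control mix of clusters (-0.03). In the whole class Sdf2l1 was the 1 called gene of 8 (5.31% of all genes), at 15.2 against 25.8 CPM (-0.73, interval -0.88 to -0.65).

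The later granulocyte-like class was made of different clusters in the libraries. Clusters 1 and 19 held 2878 and 539 Mll4SI cells and 3 and 0 control cells, and clusters 3 and 7 were also mostly Mll4SI. Weighted to the control mix, the Sdf2l1 ratio was -0.46 and short of 1.5-fold. Within clusters Sdf2l1 stood at 38.7 against 64.1 CPM in cluster 17 and 39.9 against 60.6 in cluster 13, but at 37.9 against 35.7 in cluster 2, where Mll4SI had 34 UMIs. Clusters 0 (57 Mll4SI and 1395 control cells), 3 (1650 and 243) and 7 (1505 and 81) also held at least 50 cells of both libraries. Their Mll4SI levels of Sdf2l1 are not given here, so the values above cover only a part of the shared clusters. In erythroid-like cells none of 10 was called (4.9% of all genes). The median there was 0.12, with 6 above and 4 below control. Pdia6 had the highest ratio, at 317 against 242 CPM (0.39, interval 0.29 to 0.49). Among those below, Calr was at 386 against 453 CPM (-0.23, interval -0.31 to -0.15) and Ddit3 at 16.7 against 22.0 (-0.38, interval -0.80 to -0.01). In basophil/mast-like cells none of 10 was called (9.76% of all genes), the median was -0.22 and Calr stood at 1149 against 1531 CPM (-0.41, interval -0.50 to -0.33). These came from 107 Mll4SI and 159 control cells. Later granulocyte markers summed to 16088 against 2485 CPM in the erythroid-like and 16238 against 5167 in the basophil/mast-like class. In the latter they stood at 14287 against 3806 CPM in Hashtag1-only and at 4308 against 3988 in Hashtag2-only cells (45 and 74 cells). The part of these markers in the values above was not tested.

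In Mll3/4SI early granulocyte-like cells all 7 chaperones and enzymes were below control. Calr was at 1051 against 1462 CPM (-0.48, interval -0.51 to -0.44), Pdia6 at 705 against 996 (-0.50, interval -0.54 to -0.46) and Pdia4 at 111 against 164 (-0.56, interval -0.66 to -0.47). Sdf2l1 was at 438 against 599 CPM, Hsp90b1 at 752 against 973, Manf at 612 against 772 and Hspa5 at 769 against 932. Xbp1 and Atf4 stood near control, with ratios of 0.09 (interval -0.01 to 0.19) and -0.05 (interval -0.20 to 0.09). Ddit3, not tested, stood at 7.39 against 9.85. None of 9 was called, where 3.38% of the 7962 genes were, and the median was -0.37 beside -0.07 over all genes. Of all genes 37.6% were above control.

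These lower levels moved with markers of later granulocytes in the same class. The 22 later granulocyte markers summed to 44893 CPM in Mll3/4SI early granulocyte-like cells, 22950 in Mll4SI, 12280.3 in Mll3SI and 9255 in control, none of the 22 being at 0. The 9 early granulocyte markers summed to 36895 against 35191 CPM, nearly the same, and the 10th percentile of cells for the 7 genes was 1741 against 3782 CPM. In the cells whose later marker share was at most the control's 90th percentile (1.86% of UMIs), which kept 60.4% of Mll3/4SI and 89.9% of control cells, the median ratio was -0.24. There Calr stood at 1283 against 1519 CPM, Pdia6 at 805 against 1012 and Hspa5 at 859 against 935. So the differences were smaller there, with Hspa5 at -0.12 and Pdia6 at -0.33.

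The hashtag of the cell moved with the result as well. In Hashtag2-only cells (204 Mll3/4SI and 431 control) the median was -0.64 and 6 of the genes were past 1.5-fold, among them Sdf2l1 at 363 against 653 CPM (-0.84). The share of all genes past that fold is given for the whole class only, not for the cells of either hashtag. In Hashtag1-only cells (206 and 307) the median was -0.10 and Sdf2l1 was at 502 against 530 (-0.08). Later granulocyte markers were higher in both: 53905 against 10501 CPM in Hashtag2-only and 36989 against 7551 in Hashtag1-only cells. Calr and Pdia4 were at -0.33 and Pdia6 at -0.18 in Hashtag1-only cells, and at -0.64, -0.83 and -0.81 in Hashtag2-only cells. All 7 chaperones and enzymes were thus below control under both hashtags, by more in Hashtag2-only cells. The Hashtag1-only median of -0.10 lay near the -0.07 over all genes of the whole class, of which 37.6% were above control. The part of later granulocyte RNA and of the hashtags in these lower levels was not tested beyond these values.

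**Figure D3:**
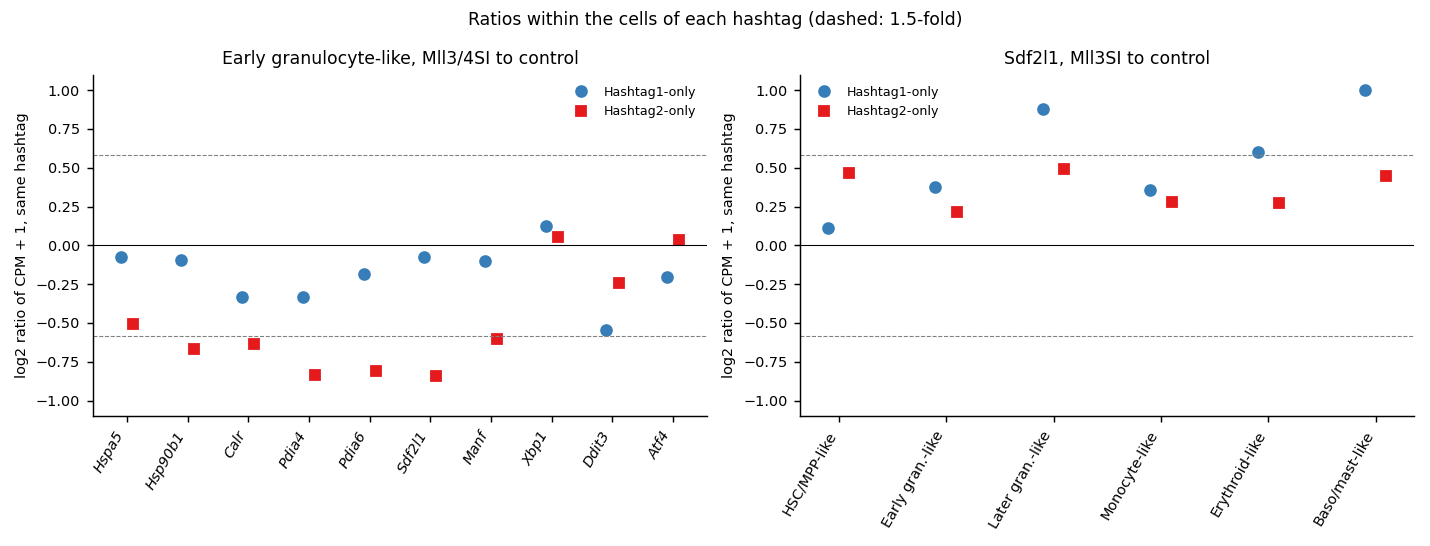
Log2 ratios of CPM + 1 within cells of 1 hashtag only, for all 10 genes in Mll3/4SI early granulocyte-like cells (left) and for Sdf2l1 in Mll3SI by class (right), with dashed lines at 1.5-fold. On the left Sdf2l1 is at -0.08 in Hashtag1-only and -0.84 in Hashtag2-only cells, and on the right both hashtags lie above 0 in every class.

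Other Mll3/4SI classes differed less, except basophil/mast-like cells. In monocyte-like cells all 9 genes tested were below control, where 40.4% of all genes were above it, and none was called (1.63% of all genes). The median was -0.12 beside -0.03. It was -0.01 in Hashtag1-only and -0.31 in Hashtag2-only cells. In later granulocyte-like cells none of 8 was called (3.8% of all genes), with a median of -0.13 beside -0.07, and Manf was lowest at 88.2 against 107 CPM. Of the 3260 Mll3/4SI cells of this class, 1154 and 282 were in clusters 12 and 22, which held 5 and 0 control cells. In erythroid-like cells none of 10 was called (4.24% of all genes) and the median was -0.11.

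Basophil/mast-like cells went the other way in Mll3/4SI. Calr stood at 2292 against 1531 CPM (0.58, interval 0.53 to 0.64), Hspa5 at 657 against 443 (0.57, interval 0.46 to 0.67), Pdia6 at 616 against 438 and Sdf2l1 at 299.6 against 163 (0.88, interval 0.72 to 1.05). Of the 10 genes 8 were above control and 1, Sdf2l1, was called, where 14.5% of the 8609 genes were, the largest background of the 18 comparisons. Of all genes 40.0% were above control. The median of the 10 was 0.33 beside -0.09 over all genes. Ddit3 was lower, at 16.4 against 24.0 CPM (-0.52, interval -1.09 to -0.01) from 61 and 59 UMIs.

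This class held 160 Mll3/4SI and 159 control cells, and other measures moved with it. Median depth was 22320 against 14005 UMIs per cell, and 16.9% against 32.7% of cells lacked cell cycle signal. The granule protein genes summed to 8884 against 4255 CPM and the 7 eosinophil markers to 819 against 1911. The 12 monocyte markers summed to 536 against 143 CPM, with 1 and 2 of them at 0. The part of these in the result was not tested. Sdf2l1 was at 0.75 in Hashtag2-only cells, and with classes taken from the nearest control cells it was at 0.48 and no gene was past 1.5-fold.

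**Figure D4:**
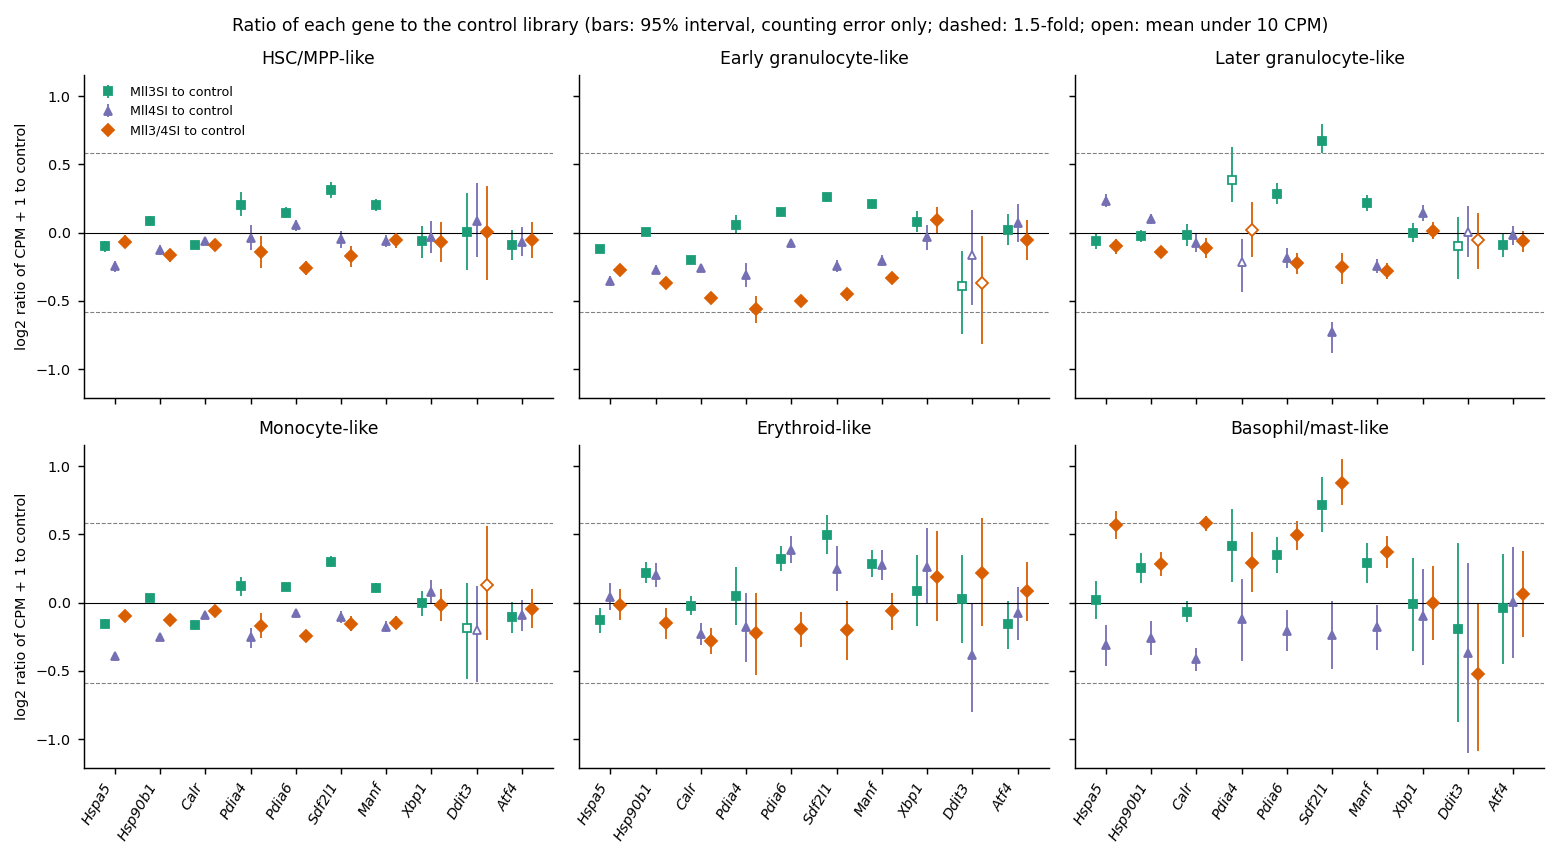
Log2 ratio of CPM + 1 to control for each gene, 1 panel per class and 1 symbol per comparison, bars giving the 95% interval of the count ratio, dashed lines at 1.5-fold and open symbols for genes with a mean under 10 CPM. Sdf2l1 leaves the dashed lines in later granulocyte-like cells (0.67 in Mll3SI, -0.73 in Mll4SI) and basophil/mast-like cells (0.71 in Mll3SI, 0.88 in Mll3/4SI).

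A pair of clusters made up almost wholly of Mll3/4SI cells was left without a class name and out of the comparisons. Cluster 14 (1091 Mll3/4SI cells, 16.2% of the library, and 4 control cells) led with early granulocyte genes such as Mpo and Ctsg beside Cpa3 and Ms4a6c, and Calr was among its 10 leading genes. It held 2141 CPM of Calr, above the 1462 of control early granulocyte-like and the 1051 of Mll3/4SI early granulocyte-like cells. Its Hspa5 level was 788 CPM, its Sdf2l1 level 393 and its Pdia6 level 678, below the control early granulocyte-like levels of 932, 599 and 996. Against Mll3/4SI early granulocyte-like cells, Hspa5 (788 against 769), Hsp90b1 (770.3 against 752) and Pdia4 (134 against 111) were higher in the cluster like Calr, and Sdf2l1 (393 against 438), Pdia6 (678 against 705) and Manf (576 against 612) lower.

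Cluster 16 (673 Mll3/4SI cells, 9.96% of the library, and 0 control cells) carried HSC/MPP markers with Pf4, Cpa3 and Fcer1a. It held 283 CPM of Hspa5, 817.5 of Calr, 90.9 of Sdf2l1 and 33.1 of Xbp1, all below the Mll3/4SI HSC/MPP-like levels of 509, 1204, 197 and 57.2. Its 7 chaperones and enzymes summed to 1933 CPM, between the 1462 of Mll3/4SI erythroid-like and the 3325 of HSC/MPP-like cells. Counting cluster 16 as HSC/MPP-like moved the Mll3/4SI median there from -0.08 to -0.52. With it 3 genes were past 1.5-fold, and no share of all genes is given for that grouping. Counting cluster 14 as early granulocyte-like moved the Calr ratio there from -0.48 to 0.33.

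The rest of the ER and stress pathway was read from gene lists, counted in the same way. Of the 24 further ER folding and quality control genes tested in early granulocyte-like cells, 0 were called higher and 1 lower in Mll3/4SI, with a median of -0.22 beside -0.07 over all genes, of which 2.20% were called higher and 1.18% lower. The 1 was Fkbp11, a prolyl isomerase of the secretory pathway, at 55.6 against 85.5 CPM (-0.61). Among 20 translocation and export genes 0 were called and the median was -0.17. Among 11 cytosolic chaperones and heat shock genes 0 were called and the median was -0.32. The 15 genes of ER-associated degradation had a median of -0.04 and 0 calls, and the 10 stress sensors a median of -0.11 and 0 calls. The 9 genes tested of the integrated stress response, through which ATF4 acts, had a median of -0.21 and 0 calls.

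In Mll3/4SI basophil/mast-like cells 4 of 24 folding genes and 3 of 20 translocation and export genes were called higher and 0 lower, with medians of 0.22 and 0.30. Over all genes 4.80% were called higher and 9.73% lower, with a median of -0.09. The largest were Pdia5 (33.1 CPM, 1.28), Fkbp11 (44.1 against 17.9, 1.26) and Txndc5 (30.1 against 15.4, 0.92). Pdia5 and Txndc5 encode disulfide isomerases. Against the same control cells, the Mll3SI and Mll4SI ratios were 0.82 and 0.67 for Txndc5. They were 0.94 and 0.18 for Fkbp11, and 0.35 and -0.01 for Pdia5. Txndc5 was thus past 1.5-fold in all 3 comparisons and Fkbp11 in Mll3SI too, so neither was particular to Mll3/4SI. In Mll3/4SI Edem3, which trims glycoproteins for degradation, was lower (196 against 321 CPM, -0.71), as was the cochaperone Bag3 (8.61 against 17.1, -0.91). Immediate early genes, which respond to handling of cells, had 5 of 8 called higher there with a median of 0.79, and their part was not tested.

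Single list genes were called elsewhere in Mll3/4SI. Of all genes 1.88% were called in HSC/MPP-like, 3.8% in later granulocyte-like, 1.63% in monocyte-like and 4.24% in erythroid-like cells. Those called were Asns and Vldlr of 10 integrated stress response genes, Eif2ak2 of 8 stress sensors and Hspa1b of 12 cytosolic chaperone genes. Fkbp11 was called of 24 folding and Srp54a of 20 translocation and export genes. The other ER, stress and heat shock lists held no call in these classes. In HSC/MPP-like cells the asparagine synthetase Asns, a target of ATF4, stood at 16.3 against 9.67 CPM (0.70), with 15.5 in Mll4SI and 9.95 in Mll3SI, and Vldlr at 6.95 against 11.2 (-0.62). In later granulocyte-like cells Eif2ak2, the kinase PKR that senses double-stranded RNA, was at 34.0 against 17.8 CPM (0.90) and at 11.6 in Mll4SI, between classes made of different clusters as given above. In monocyte-like cells the heat shock gene Hspa1b was at 6.68 against 16.8 (-1.21), with 34.5 in Mll3SI and 3.99 in Mll4SI. In erythroid-like cells Fkbp11 was at 9.72 against 20.3 (-0.99) and Srp54a, of the signal recognition particle, at 16.8 against 30.6 (-0.83), with 15.1 and 19.5 in the other 2 groups.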

How the data were processed

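The values deposited by the authors were UMI counts per gene and cell barcode from 10x Genomics 3′ libraries, with Cell Ranger 7.1.0 and build mm10 per the submitters' processing notes; other settings are not given in the sources used here. The 10 members and all gene lists were chosen with earlier results of these data known. Python 3.11.15 with scanpy 1.11.5, leidenalg 0.10.2, numpy 2.4.6 and scipy 1.17.1 was used. Cells with at least 500 genes, 1000 UMIs and at most 10% mitochondrial UMIs were kept, and Scrublet's highest scores (0.8% per 1000 cells) were removed as doublets. Clustering used 2000 variable genes without members, markers and lists, 30 principal components, 15 neighbours and Leiden resolution 1 (25 clusters). To be named, a cluster needed 3 markers raised by 1 or more on the log2 scale, a lead of 2 over the next class, and no other class with more markers among the top 10 genes. Shallow clusters, and clusters with over 95% of cells from 1 library that mixed classes, stayed unnamed. This naming rule was set after the clusters were seen. Unnamed cluster 15, of dividing granulocytes, made up 6.04% of the control library, 5.43% for Mll3SI, 0.128% for Mll4SI and 2.64% for Mll3/4SI, while its Mll4SI counterpart, cluster 19, was named. Unnamed cluster 21 held 0.648% to 1.30% of cells.

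Counts were summed per class and library and divided by the class total (CPM). The counts are of 3′ ends and were not divided by length, and levels are compared within a gene. Intervals are 95%, exact Poisson, conditional binomial for ratios, or Clopper-Pearson for shares, and cover counting error only. Classes with under 50 cells in a library were not compared. Named list genes were, in each main class, up to 3 with the highest and 3 with the lowest Mll3/4SI ratio among those called. Likeness named the 5 genes of highest r. The scripts were tested on simulated counts. No ambient RNA correction was made.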

Additional observations from a re-analysis of the deposited data

How the results depend on the processing

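With 1 library per group no library could be left out. No paired analysis was possible because each group has 1 library and the comparisons come from no test. In the 6 main classes no value past 1.5-fold changed sign under any alternative run, but some medians did, among them those of later granulocyte-like Mll3SI and Mll4SI, HSC/MPP-like, erythroid-like and basophil/mast-like Mll4SI and monocyte-like Mll3SI, as did some uncalled ratios, among them Calr in early granulocyte-like Mll3/4SI and Hspa5 in later granulocyte-like Mll4SI cells. Of 255 median ratios under the alternatives, 225 stayed within the spread used to compare them and 30 moved, and of 255 counts past 1.5-fold 232 stayed and 23 moved. Medians are given first, and causes were not tested.

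In Hashtag1-only cells the Mll3/4SI median was -0.10 in early granulocyte-like, -0.074 in later granulocyte-like and -0.0054 in monocyte-like cells. For Mll4SI it was -0.13 in early granulocyte-like, 0.062 in later granulocyte-like and 0.0098 in basophil/mast-like cells, and for Mll3SI 0.16 in later granulocyte-like cells. In Hashtag2-only cells it was -0.64, -0.26 and -0.31 in the same 3 classes of Mll3/4SI, and -0.30, -0.15 and -0.24 in those of Mll4SI. With the class of the nearest control cells, Mll3/4SI gave 0.15 in basophil/mast-like, -0.29 in early granulocyte-like, -0.28 in erythroid-like, -0.011 in HSC/MPP-like and -0.063 in monocyte-like cells. Without cycling cells the HSC/MPP-like median was 0.19 in Mll3SI and 0.66 in Mll4SI, and the later granulocyte-like one -0.30 in Mll3/4SI and -0.14 in Mll4SI. Totals without the 100 highest genes gave -0.20 for early granulocyte-like Mll4SI, -0.047 for later granulocyte-like Mll3/4SI and -0.0077 for monocyte-like Mll3SI. Median-of-ratios scaling gave -0.33 in early granulocyte-like Mll3/4SI, and Leiden resolution 2 gave -0.088 in erythroid-like Mll4SI. Of the alternatives chosen after seeing the data, counting library-specific clusters in their leading class gave -0.52 in HSC/MPP-like Mll3/4SI, and leaving out early granulocyte-like cells with high later markers gave -0.24 in Mll3/4SI and -0.20 in Mll4SI. Counting the dividing cluster 15 as later granulocyte-like was the third.

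Counts past 1.5-fold in later granulocyte-like cells were 0 for both Mll3SI and Mll4SI with 10 CPM added, with genes of at least 50 CPM, and weighted to the control mix. In Hashtag2-only cells the count was 0 there for Mll3SI, 0 in basophil/mast-like Mll3SI, 6 in early granulocyte-like Mll3/4SI and 1 in HSC/MPP-like Mll3/4SI. In Hashtag1-only cells it was 2 in basophil/mast-like Mll3SI and 1 in erythroid-like Mll3SI and Mll4SI. Without cycling cells it was 1 and 6 in HSC/MPP-like Mll3SI and Mll4SI, and 2 and 3 in later granulocyte-like Mll3SI and Mll3/4SI. In basophil/mast-like Mll3/4SI it was 4 with median-of-ratios scaling, 4 as a mean over cells, 3 without the 100 highest genes and 0 with the nearest control class. It was 3 in HSC/MPP-like Mll3/4SI with library-specific clusters counted, and 1 in early granulocyte-like Mll3/4SI without cells of both hashtags. No share of all genes past 1.5-fold is given for these alternatives, so the counts have no background beside them. Depth limits Ddit3 most, with 27 to 61 UMIs per library in basophil/mast-like cells.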
